A study of Homo sapiens with 5 samples.

Results

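The genes described here are RXRA, the nuclear receptor gene RXRB and 7 genes for receptors that pair with retinoid X receptors, PPARG, PPARD, RARA, RARG, VDR, THRA and NR1H2, which makes 9 of the 20162 protein-coding genes annotated on hg19. The values are called ChIP-seq peaks of Nrf2 and HIF1α. A peak was assigned to a gene when it overlapped the gene body or lay within 50 kb of it. In all, 49 of the 29781 called peaks were assigned to the 9 genes. RXRA was singled out because it holds one of the widest Nrf2 peaks of the arsenic-treated cells, so that peak and its width are given as a description. The partner genes were listed because their proteins pair with retinoid X receptors, and earlier results of these data were known when the list was made.

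All libraries came from BEAS-2B, an immortalized line of human bronchial epithelial cells. Chromatin was taken from control cells or from cells given 1 μM inorganic arsenic (iAs) for 6 h, both after serum starvation overnight, and was precipitated with an antibody to Nrf2 or to HIF1α. There was 1 library for each antibody and condition and an input DNA library, for which no intervals were used here. With 1 library per group there is no replicate error, so every difference below is between called intervals of single libraries, and none was tested. The files hold positions only, without heights, scores or read depth. A peak found with iAs only is one that no called control peak overlaps, which does not show that binding was absent in control cells. Expression was not measured, so the identity of the cells could not be checked against marker genes.

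The Nrf2 lists held 3204 peaks in control cells and 7743 with iAs, with median widths of 309 and 333 bp. For HIF1α there were 6008 and 12826 peaks, with medians of 276 and 340 bp. Each list had a narrowest width, 181 bp for Nrf2 with iAs and 188 bp for HIF1α with iAs, that 297 and 495 peaks shared. Of the Nrf2 peaks, 14.3% in control cells and 14.2% with iAs were centred within 1 kb of a protein-coding start site, against 51.9% and 78.1% of the HIF1α peaks.

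Retinoid X receptors are nuclear receptors, transcription factors that small lipophilic ligands switch on. They bind DNA as heterodimers with other nuclear receptors, among them the receptors for fatty acids (PPARγ and PPARδ), retinoic acid (RARα and RARγ), vitamin D (VDR), thyroid hormone (THRα) and oxysterols (LXRβ, encoded by NR1H2). In airway epithelium retinoids maintain the mucociliary state, and RXRα protein is also known to bind Nrf2 and to hold back its activity. Nrf2 binds antioxidant response elements together with small MAF proteins, and HIF1α binds hypoxia response elements together with ARNT.

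The intervals on which the Nrf2 results turn are shown first, on hg19 and 5′ to 3′ along the strand of the gene. They are the central 300 bp of the wide RXRA peak (chr9:137299053-137299352, plus strand), the narrow RXRA peak toward the 3′ end of the gene (chr9:137324955-137325201, plus), the PPARG peak (chr3:12465791-12466078, plus) and the RARG peak (chr12:53611113-53611293, minus). Capitals mark matches to TGACNNNGC, the core of the antioxidant response element, or to TGACTCA or TGAGTCA, the site of AP-1. A match on the opposite strand appears as its reverse complement. The full element TGACTCAGC satisfies the first pattern and contains the second, so both patterns then mark the same bases.
RXRA wide Nrf2 peak, centre: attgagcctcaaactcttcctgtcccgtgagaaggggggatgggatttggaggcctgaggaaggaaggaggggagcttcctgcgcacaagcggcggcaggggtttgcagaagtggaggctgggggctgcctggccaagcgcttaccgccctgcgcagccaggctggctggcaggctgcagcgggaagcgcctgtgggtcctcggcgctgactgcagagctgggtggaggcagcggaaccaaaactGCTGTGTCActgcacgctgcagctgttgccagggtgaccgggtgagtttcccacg
RXRA Nrf2 peak near the 3′ end: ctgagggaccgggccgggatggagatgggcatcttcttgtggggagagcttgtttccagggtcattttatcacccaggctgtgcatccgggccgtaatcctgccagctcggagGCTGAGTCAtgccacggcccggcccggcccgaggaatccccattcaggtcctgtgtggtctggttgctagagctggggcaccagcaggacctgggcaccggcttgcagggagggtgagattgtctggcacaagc
PPARG Nrf2 peak: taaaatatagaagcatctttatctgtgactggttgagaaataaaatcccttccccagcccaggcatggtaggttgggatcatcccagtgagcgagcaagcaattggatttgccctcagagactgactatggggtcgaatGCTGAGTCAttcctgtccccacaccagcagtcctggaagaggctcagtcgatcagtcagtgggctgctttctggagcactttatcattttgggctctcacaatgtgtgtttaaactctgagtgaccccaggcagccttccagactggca
RARG Nrf2 peak: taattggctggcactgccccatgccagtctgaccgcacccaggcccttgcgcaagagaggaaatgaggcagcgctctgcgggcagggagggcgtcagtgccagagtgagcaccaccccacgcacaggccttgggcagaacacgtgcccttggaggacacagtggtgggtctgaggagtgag

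The next intervals are those of HIF1α in control cells that hold an AP-1 site and had no HIF1α peak with iAs. They lie in intron 1 of RARA (chr17:38470929-38471126, plus), in intron 1 of RXRA (chr9:137252827-137253049, plus) and over coding exon 6 of PPARG (chr3:12447356-12447588, plus). Capitals mark the same patterns.
RARA HIF1α control peak: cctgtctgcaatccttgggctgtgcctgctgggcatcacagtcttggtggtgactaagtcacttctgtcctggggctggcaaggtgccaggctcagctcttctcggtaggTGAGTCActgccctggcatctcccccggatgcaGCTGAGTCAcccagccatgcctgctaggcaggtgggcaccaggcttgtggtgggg
RXRA HIF1α control peak: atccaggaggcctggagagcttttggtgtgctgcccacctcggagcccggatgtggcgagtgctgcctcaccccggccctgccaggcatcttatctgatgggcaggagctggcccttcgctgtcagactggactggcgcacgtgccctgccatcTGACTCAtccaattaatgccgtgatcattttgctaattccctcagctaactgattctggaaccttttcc
PPARG HIF1α control peak: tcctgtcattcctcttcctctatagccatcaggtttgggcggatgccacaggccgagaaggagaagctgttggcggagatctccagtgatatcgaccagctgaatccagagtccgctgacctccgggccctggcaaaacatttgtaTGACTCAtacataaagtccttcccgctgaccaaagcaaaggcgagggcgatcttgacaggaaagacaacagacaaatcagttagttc

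Nrf2 peaks were called at 1 of the 9 genes in control cells and at 4 with iAs. RXRA was the gene with a peak in both conditions, and PPARG, RARA and RARG had peaks with iAs only. Over all protein-coding genes, 20.0% had a Nrf2 peak in the body or within 50 kb in control cells and 35.0% with iAs. A Nrf2 iAs peak without an overlapping control peak was called at 4 of the 9 genes, against 25.4% of all genes. All 7 Nrf2 iAs peaks lay inside the gene bodies, which held such a peak in 4 of the 9 genes and in 14.5% of all genes, and in control cells in 1 of 9 and 7.59%. None was centred within 1 kb of a start site of its own gene, where 2.64% of all genes had a Nrf2 peak in control cells and 5.73% with iAs. The windows searched ran from 107 to 247 kb (median 154 kb) at these genes and had a median of 127 kb over all genes. Both include 50 kb on each side, so the median lengths of the gene bodies themselves differed by a larger factor. The shares were not adjusted for length.

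HIF1α peaks were called at 7 of the 9 genes in control cells, where 45.5% of all genes had one, and at all 9 with iAs, where 68.6% had one. THRA and NR1H2 were the genes without a control peak. With iAs the 9 genes had 33 HIF1α peaks, against 8 in control cells, and each gene had at least 1 that no control peak overlapped (59.6% of all genes). HIF1α peaks lay in the bodies of 5 genes in control cells (19.9% of all genes) and of 6 with iAs (44.7%), again without adjustment for gene length. They were centred within 1 kb of the gene's own start site at 1 gene in control cells, RXRB (17.5% of all genes), and at 6 with iAs, RXRA, RXRB, PPARG, PPARD, RARA and THRA (43.9%).

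**Figure D1:**
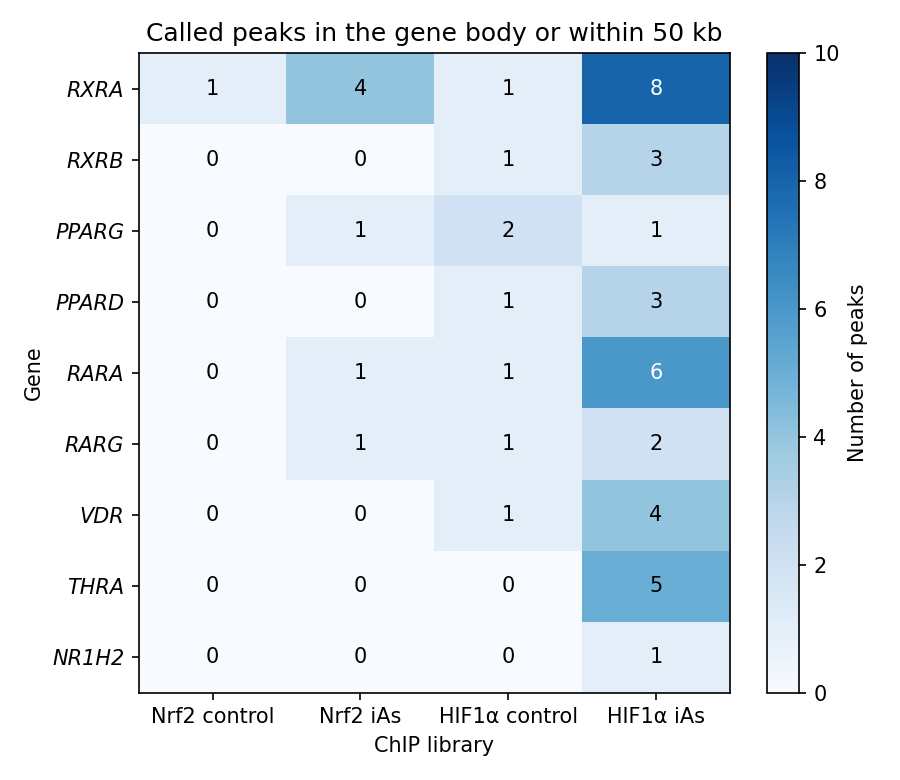
Number of called peaks in the body or within 50 kb of each of the 9 genes (rows) in the 4 libraries (columns), 1 library each. Of these 9 genes, RXRA has the highest count in the Nrf2 iAs library (4) and in the HIF1α iAs library (8). The first Nrf2 column is 0 for each of the 9 genes other than RXRA.

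RXRA (ENSG00000186350.12) encodes RXRα and spans chr9:137208944-137332431 on the plus strand, with 10 exons in its canonical transcript, whose start site is at 137218301. In control cells a single Nrf2 peak of 1235 bp lay in intron 2 (chr9:137298550-137299784), centred 80.9 kb downstream of the start site. It ranked 22 by width among the 3204 peaks. With iAs the peak at this place ran from 137297416 to 137300988, a width of 3573 bp that ranked second among the 7743 peaks, between the widest of 3755 bp and the third of 3569 bp.

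The wide peak extended the control peak on both sides, by 1134 bp upstream and 1204 bp downstream, and the control peak covered 34.6% of it. Its width was 2.89 times that of the control peak. Over the 2833 places where 1 control and 1 iAs Nrf2 peak overlapped each other alone, the median of this ratio was 1.63, and 234 places (8.26%) had a ratio at least as high. RXRA was chosen on this width, and nothing is read from its place among the peaks. Of the Nrf2 control peaks, 94.6% overlapped a Nrf2 iAs peak, as the RXRA peak did, and 62.0% of the Nrf2 iAs peaks had no control peak, as 6 of the 7 at these genes did.

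Beside the wide peak lay 2 narrow ones with iAs only, of 198 bp (chr9:137296454-137296651) and 304 bp (chr9:137296998-137297301). The gaps between these 3 intervals were 346 and 114 bp, and together they spanned 4535 bp of intron 2. The peak of 247 bp lay 107 kb downstream of the start site in intron 8 (chr9:137324955-137325201). RXRA thus had 4 Nrf2 peaks with iAs that covered 4322 bp, and 3.41% of all genes had at least as many in their window. The window was 223 kb at RXRA and had a median of 127 kb over all genes. Because RXRA was chosen on the widest of these peaks, nothing is read from this share. When intervals less than 500 bp apart were joined, the 3 clustered intervals became 1, and RXRA had 2 Nrf2 iAs peaks instead of 4 and 6 HIF1α iAs peaks instead of 8.

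The gene with a Nrf2 iAs peak closest in width to that of RXRA was ASPH, an aspartate beta-hydroxylase gene, with 3569 bp and a difference of 4 bp. The likeness is of width in 1 library and gives no value for anything else about this gene.

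**Figure D2:**
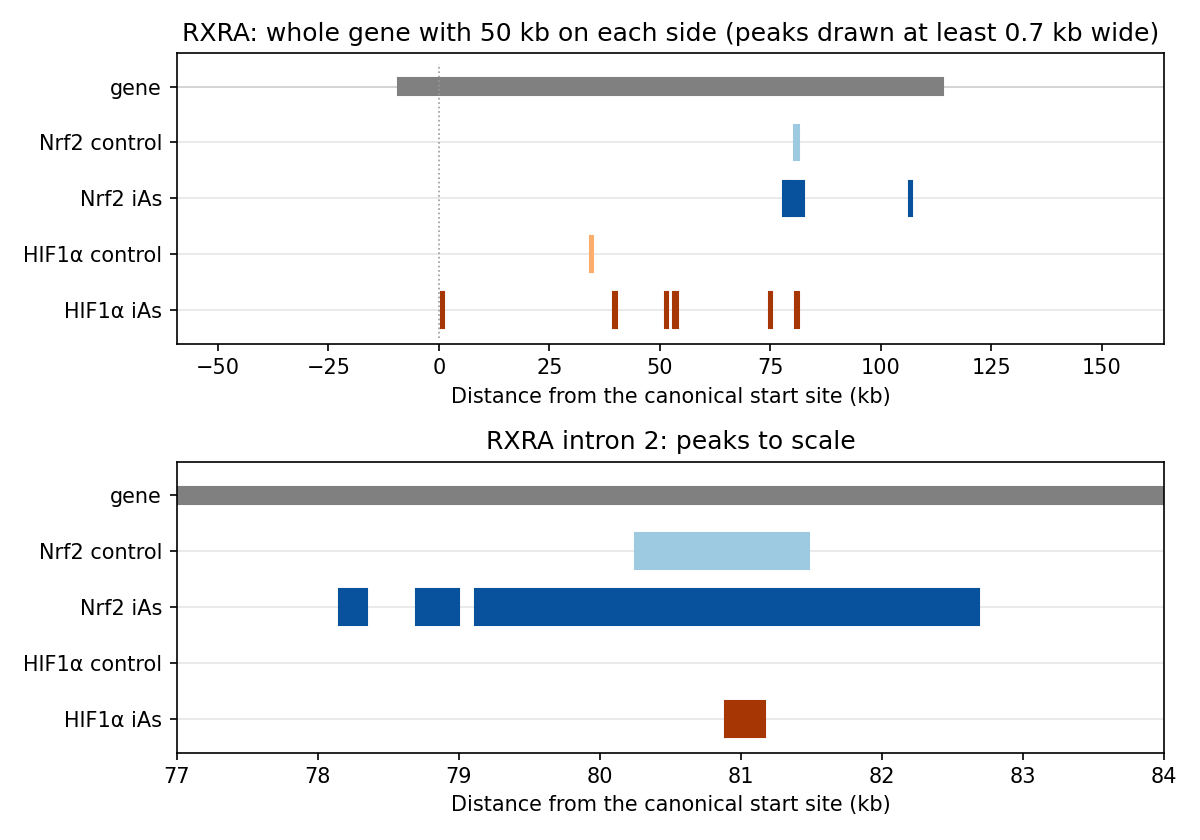
Called peaks of the 4 libraries at RXRA by distance from the canonical start site (kb, positive downstream), for the whole gene with 50 kb on each side (top) and for part of intron 2 to scale (bottom). The grey bar is the gene, and each coloured block is 1 peak. The Nrf2 iAs interval of 3573 bp extends past the control interval of 1235 bp on both sides and contains the HIF1α iAs interval of 285 bp.

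The wide RXRA peak held no full TGACTCAGC element. It held 3 matches to TGACNNNGC, at 79.3, 81.0 and 82.1 kb from the start site, with the letters TGACTCTGC, TGACACAGC and TGACCTTGC on the minus strand, and 1 AP-1 site at 80.5 kb. Of these, the match at 81.0 kb, whose middle lies 100 bp from the centre of the wide peak, and the AP-1 site also fell inside the control peak. The outer matches, at 79.3 kb (chr9:137297522-137297590) and 82.1 kb (chr9:137300377-137300445), lay in the stretches called with iAs only. They are printed with 30 bp on each side, plus strand, with the AP-1 site (chr9:137298763-137298829).
RXRA match at 79.3 kb: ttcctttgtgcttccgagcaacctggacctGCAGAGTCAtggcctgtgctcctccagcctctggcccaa
RXRA match at 82.1 kb: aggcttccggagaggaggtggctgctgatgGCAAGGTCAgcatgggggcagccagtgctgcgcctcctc
RXRA AP-1 site at 80.5 kb: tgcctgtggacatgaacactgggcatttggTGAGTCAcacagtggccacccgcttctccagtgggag

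An interval of 3573 bp has room for more matches than a narrow one, so the count of 3 is not set against that of other peaks. The 247-bp peak in intron 8 held TGACTCAGC 6 bp from its centre. The 198-bp and 304-bp peaks beside the wide one held neither pattern.

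HIF1α had 1 peak at RXRA in control cells and 8 with iAs. The control peak, of 223 bp in intron 1 at 34.6 kb (chr9:137252827-137253049), had no HIF1α peak with iAs. All 8 iAs peaks lay inside the gene, and none of them overlapped a control peak. They were 188 to 285 bp wide, below the list's median of 340 bp, and 1 of them had the narrowest width of that list.

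A HIF1α iAs peak of 266 bp lay 0.719 kb past the canonical RXRA start (chr9:137218888-137219153), in intron 1. The next 6 lay farther into intron 1, at 39.7, 40.1, 51.6, 53.3, 53.7 and 75.0 kb, and those at 53.3 and 53.7 kb were 495 and 860 bp past a second annotated start of the gene. The eighth lay in intron 2 at 81.0 kb (chr9:137299188-137299472, 285 bp) inside the wide Nrf2 peak, 1772 bp from its start and 1516 bp from its end. The number of 8 HIF1α iAs peaks was reached by 3.42% of all genes. The window was 223 kb at RXRA, against a median of 127 kb over all genes, and the share was not adjusted for it. Nor was the share recomputed for the 6 peaks left when close intervals were joined, so nothing is read from it.

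The interval in intron 2 was the single place at the 9 genes where peaks of both factors overlapped with iAs, 1 of the 7 Nrf2 peaks, against 14.7% of all Nrf2 iAs peaks. In control cells the RXRA Nrf2 peak overlapped no HIF1α peak, while 27.7% of all Nrf2 control peaks did. The overlap at RXRA was lost when at least 50% of each interval had to be shared, since the HIF1α interval is much the shorter. This HIF1α iAs interval also lay wholly inside the Nrf2 control interval, so the Nrf2 call there was not new with iAs. An interval of 3573 bp has more room to meet a HIF1α peak than a narrow one. RXRA was chosen on this width, so nothing is read from the count of 1 in 7.

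RXRB encodes RXRβ and lies on chromosome 6 in the major histocompatibility region (chr6:33161365-33168442, minus strand). No Nrf2 peak was called in its body or within 50 kb in either condition. A HIF1α peak of 437 bp (chr6:33168248-33168684) covered its start site in control cells, and a peak of 675 bp (chr6:33167986-33168660) did so with iAs. Both also covered the start of the neighbouring zinc transporter gene SLC39A7, which runs the other way, so they cannot be given to RXRB alone. Further HIF1α iAs peaks without a control peak lay at the start of RING1 (chr6:33176015-33176387, 373 bp) and toward COL11A2 (chr6:33129161-33129821, 661 bp).

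PPARG encodes PPARγ, the receptor that drives fat cell formation, and spans chr3:12328867-12475855 on the plus strand. Its Nrf2 iAs peak of 288 bp (chr3:12465791-12466078) lay in intron 7, 135 kb past the canonical start, and its centre fell on a TGACTCAGC element. No Nrf2 control peak was called in the gene or within 50 kb. In control cells HIF1α had a peak of 233 bp over coding exon 6 (chr3:12447356-12447588), where no HIF1α peak was called with iAs. With iAs the sole HIF1α peak, of 414 bp (chr3:12329743-12330156), lay 463 bp past an upstream annotated start of the gene.

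The peak closest to the limit on the inside was a HIF1α control peak 49986 bp from its gene, and the nearest outside at any of the 9 genes was a HIF1α iAs peak 60.0 kb from RARA. Without that control peak, 7 HIF1α control peaks remain, of which 4 had no iAs peak, and 3 of 3 near start sites were kept.

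PPARD encodes PPARδ, a receptor for fatty acids that acts in lipid oxidation and in epithelia (chr6:35310335-35395968, plus). It had no Nrf2 peak in its window. In control cells its HIF1α peak, of 536 bp (chr6:35435872-35436407), lay at the start of the ribosomal protein gene RPL10A, 39.9 kb beyond the end of PPARD. That peak was 1235 bp wide with iAs (chr6:35435834-35437068), the widest HIF1α peak at any of the 9 genes. With iAs only, HIF1α peaks of 490 bp covered the PPARD start (chr6:35310277-35310766) and of 264 bp the start of FANCE.

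RARA encodes RARα, a retinoic acid receptor, and spans chr17:38465432-38513895 on the plus strand. In control cells HIF1α had a peak of 198 bp in its intron 1 (chr17:38470929-38471126), 5.59 kb past the start. With iAs no HIF1α peak was called there, and a Nrf2 peak of 307 bp (chr17:38470918-38471224) contained the whole of the former interval. No Nrf2 control peak was called at RARA. The shared sequence printed above holds a TGACTCAGC element 5 bp from the centre of the Nrf2 peak and a separate AP-1 site.

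RARA also had 6 HIF1α iAs peaks, none with a control peak. Of these, 5 lay in the gene body, between 9.16 and 36.3 kb past the canonical start, and those at 9.16, 32.2 and 33.2 kb covered other annotated starts of RARA. The sixth, of 317 bp, lay at the start of the replication gene CDC6. The canonical RARA start itself carried no peak of either factor.

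RARG encodes RARγ, the retinoic acid receptor most typical of skin (chr12:53604351-53626764, minus). Its Nrf2 iAs peak lay in intron 3 (chr12:53611113-53611293) and was 181 bp wide, the narrowest width of that list. It held neither TGACNNNGC nor an AP-1 site. No HIF1α peak was called in the RARG body. Those in its window lay at other genes, a control peak of 519 bp and an iAs peak of 937 bp that overlapped it at the shared start of CSAD and ZNF740, and an iAs peak of 234 bp at ESPL1.

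VDR encodes the vitamin D receptor (chr12:48235320-48336831, minus). It had no Nrf2 peak in its window, and the nearest, with iAs, lay 64.2 kb from the gene. In control cells HIF1α had a peak of 297 bp (chr12:48328876-48329172) within a longer annotated transcript, 7807 bp past that transcript's start, with no HIF1α peak there after iAs. The 4 HIF1α iAs peaks of the window, 196 to 359 bp wide, all lay outside VDR, 3 nearest to the start of HDAC7 and 1 at that of TMEM106C.

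THRA encodes the thyroid hormone receptor THRα (chr17:38214543-38250120, plus). It had no Nrf2 peak and no HIF1α control peak in its window. With iAs a HIF1α peak of 510 bp lay 0.359 kb past its canonical start (chr17:38219323-38219832), and one of 227 bp farther into intron 1. The other 3 of its 5 peaks lay at MSL1 and CASC3.

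NR1H2 encodes LXRβ, a sensor of oxysterols (chr19:50832910-50886645, plus). Its sole peak in the 4 libraries was a HIF1α iAs peak of 419 bp (chr19:50887319-50887737), which began 674 bp beyond the end of the gene and covered the start of the DNA polymerase gene POLD1.

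**Figure D3:**
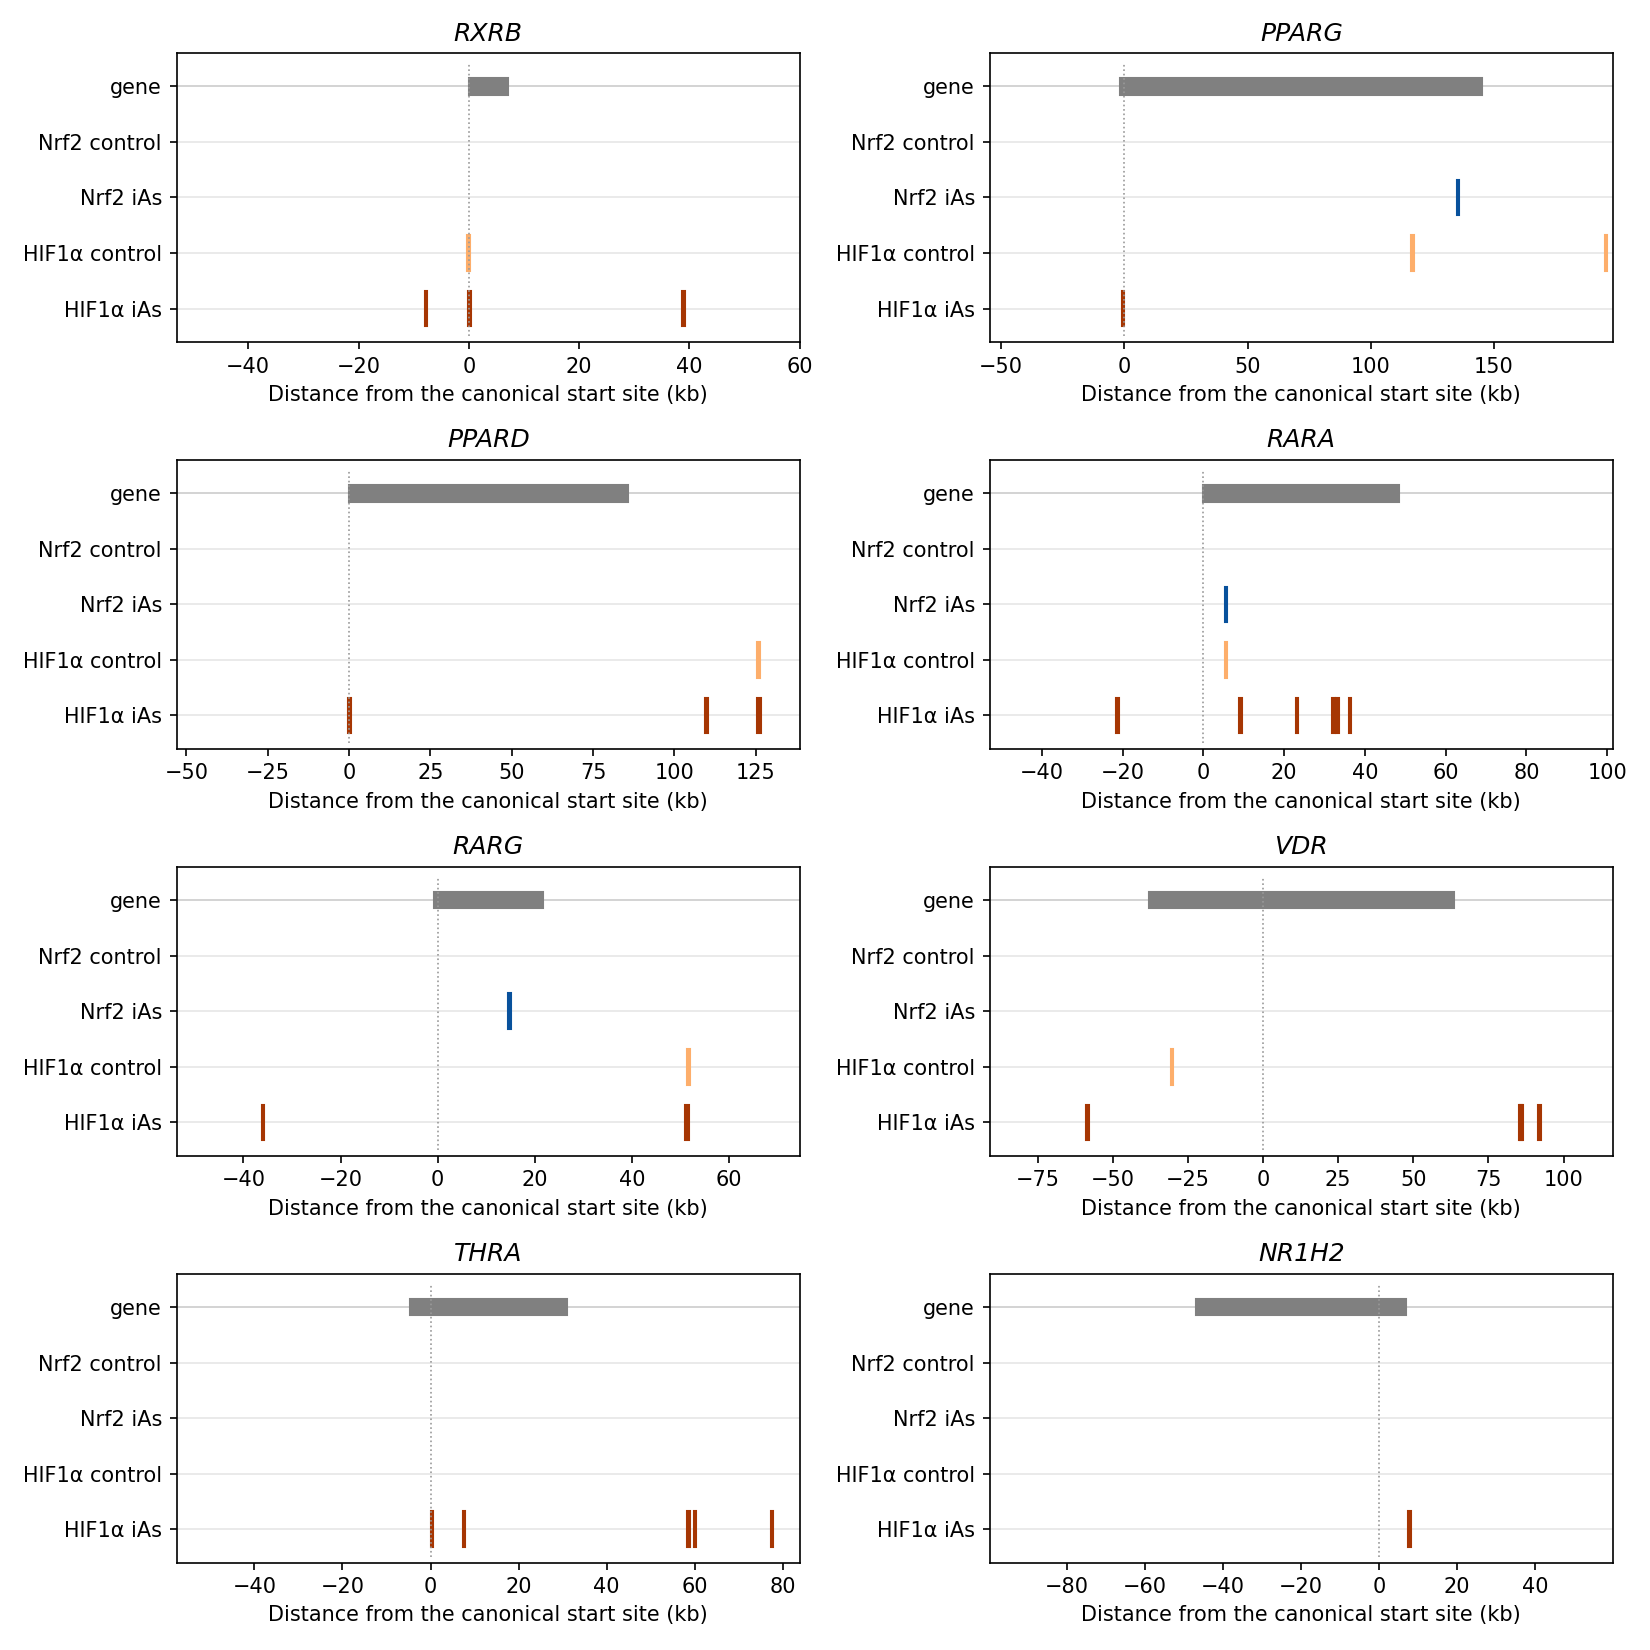
Called peaks at the 8 genes other than RXRA by distance from the canonical start site (kb, positive downstream), with the grey bar as the gene and each block as 1 peak, drawn with a minimum width so that it can be seen. Nrf2 iAs peaks lie in PPARG, RARA and RARG, and the RARA one lies at the HIF1α control peak.

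Many of the HIF1α peaks lay nearer to the start of a neighbouring gene than to that of the assigned one. Of the 33 HIF1α iAs peaks, 18 lay in the bodies of the 9 genes, 18 had one of these genes as the nearest start site, and 15 were nearest to the start of another gene. A start site of any protein-coding gene lay within 1 kb of the centre of 23, against 78.1% of all HIF1α iAs peaks. Of the 33, 10 were within 1 kb of a start of the assigned gene. Of the 7 Nrf2 iAs peaks, 6 had the assigned gene as the nearest start. Since 4 of these 6 lie in RXRA, 3 of them within 4535 bp, no contrast between the factors is drawn from this count.

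Of the 8 HIF1α control peaks, 3 overlapped a HIF1α iAs peak and 5 did not, while 53.7% of all HIF1α control peaks overlapped one. The 3 that were kept lay at the starts of RXRB, of RPL10A near PPARD, and of CSAD near RARG. Within 1 kb of any start site 3 of 4 were kept, against 83.3% of all HIF1α control peaks in such places, and over 1 kb away 0 of 4 were kept, against 21.8%. In the other direction, 30 of the 33 HIF1α iAs peaks had no control peak, and 75.2% of all HIF1α iAs peaks had none.

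The AP-1 site stood within 100 bp of the centre in 3 of the 5 HIF1α control peaks without an iAs peak, those in RXRA, PPARG and RARA, and in 0 of the 3 that were kept. Over the whole list it stood in 25.2% of the HIF1α control peaks without an iAs peak and in 5.33% of those kept. The RARA interval was the single one of the 5 at which a Nrf2 iAs peak was called. Among all 2782 such HIF1α peaks, 41.4% overlapped a Nrf2 iAs peak, and 21.9% overlapped one without a Nrf2 control peak.

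**Figure D4:**
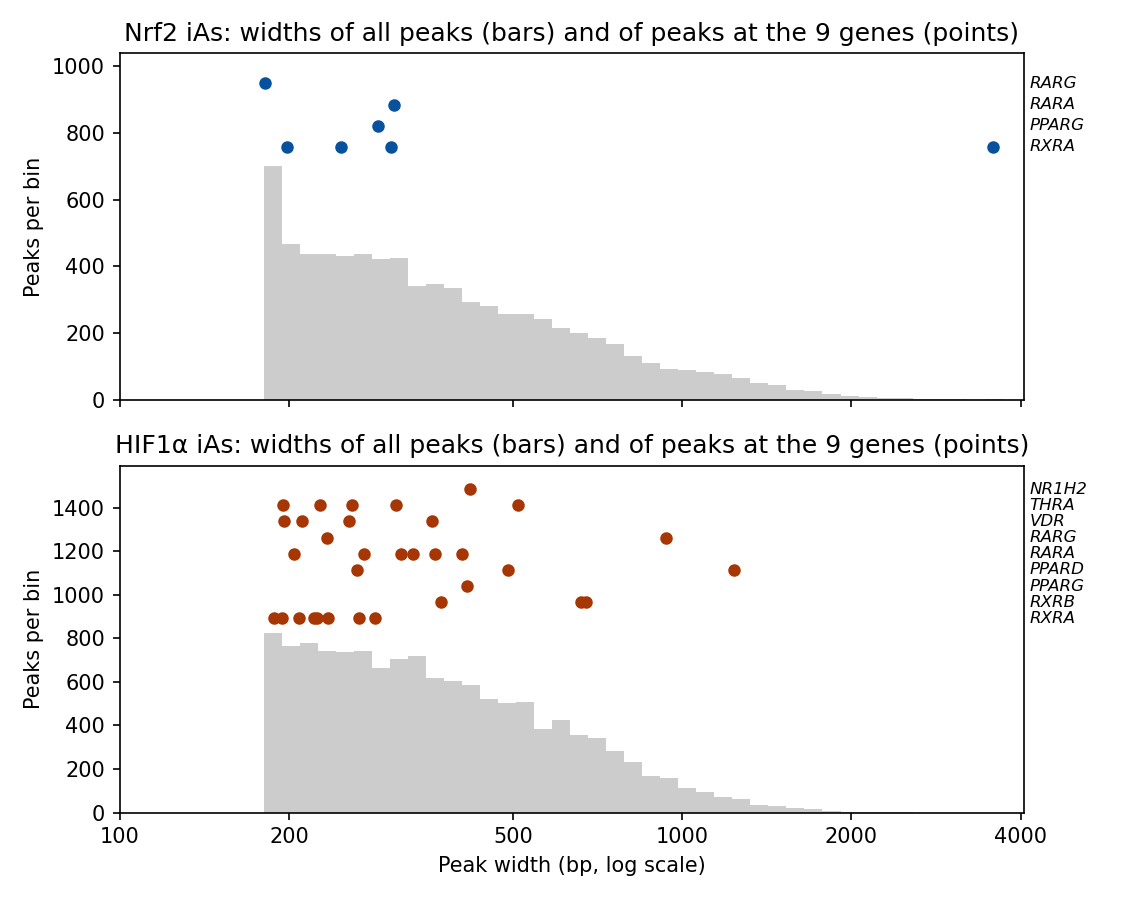
Widths of all peaks with iAs (grey bars, peaks per bin, log axis in bp) and of the peaks at the 9 genes (points, 1 row per gene), for Nrf2 (top) and HIF1α (bottom). The RXRA peak of 3573 bp stands at the far right of the Nrf2 list, and the other 6 Nrf2 peaks lie between 181 and 307 bp.

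The wide RXRA peak was unlike the others at these genes in width, on which it was chosen. The remaining 6 Nrf2 iAs peaks were all narrower than the list's median of 333 bp, and 21 of the 33 HIF1α iAs peaks were narrower than 340 bp. With every list reduced to its wider 50%, the Nrf2 iAs peaks at the 9 genes fell from 7 to 1, the wide one of RXRA, and the genes with such a peak from 4 to 1. The same 2 counts resulted when the iAs list was cut to as many of its widest peaks as the control list held. The Nrf2 iAs peaks in PPARG, RARA and RARG therefore rest on narrow calls in 1 library.

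All 7 Nrf2 iAs peaks had a GC content above the list's median of 47.2%, from 49.7% at PPARG to 67.1% at RXRA with a median of 63.2%. Since 4 of the 7 lie in RXRA, and 3 of those within 4535 bp, they are not 7 separate places. The 33 HIF1α iAs peaks ran from 59.6 to 76.5% GC with a median of 69.9%, beside 69.8% for their list.

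Within 100 bp of the centre, TGACTCAGC stood in 3 of the 7 Nrf2 iAs peaks, those of RXRA intron 8, PPARG and RARA, and in 15.6% of all 7743 Nrf2 iAs peaks. In windows of the same length moved by 5 kb the share over the list was 0.245%. TGACNNNGC stood in the same 3 and in 31.6% of the list (6.65% when moved), and TGACTCA or TGAGTCA in the same 3 and in 38.3% (3.85% when moved). All motifs were searched on both strands, and a match counted only if all its letters lay within 100 bp of the centre, so the match of the wide RXRA peak whose middle is 100 bp away did not count. In these few intervals a match describes the letters of the sequence and does not show a bound site.

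The hypoxia response core, ACGTG or GCGTG, stood within 100 bp of the centre in 17 of the 33 HIF1α iAs peaks and in 52.4% of all HIF1α iAs peaks, against 25.3% of windows moved by 5 kb. In the HIF1α control peaks it stood in 6 of 8 and in 47.7% of the list. For RXRA and PPARG, the match nearest to the centre of the HIF1α iAs peak at the start of the gene is printed with 30 bp on each side (chr9:137219002-137219066 and chr3:12330029-12330093, both plus strand), with the core or its reverse complement in capitals. It lay 14 bp from the centre at RXRA and 112 bp at PPARG.
RXRA start-site HIF1α match: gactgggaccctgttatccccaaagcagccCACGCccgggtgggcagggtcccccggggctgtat
PPARG start-site HIF1α match: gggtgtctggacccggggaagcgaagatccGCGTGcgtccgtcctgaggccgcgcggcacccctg

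The other genes of the pathway were taken as 4 lists. For their counts within 50 kb, the Nrf2 shares over all protein-coding genes were 20.0% in control cells and 35.0% with iAs. The HIF1α shares were 45.5% and 68.6%. Some list counts lie near or below these shares, and no difference from them was tested. The windows of neighbouring genes overlap, so a peak can count at several genes and in several lists. The HIF1α iAs peak at the THRA start (chr17:38219323-38219832) also counted for NR1D1, one of the other nuclear receptors. Among 39 other nuclear receptors, a Nrf2 peak was called within 50 kb of 11 in control cells and of 17 with iAs, and a HIF1α peak near 19 and 25. PPARA, the receptor for fatty acids in liver, had the widest Nrf2 iAs peak of that list, 1379 bp in its intron 2 (chr22:46566656-46568034), where a control peak was also called. NR2C1, an orphan receptor gene, had the widest HIF1α peak found with iAs only, 761 bp at 0.481 kb from its start (chr12:95466533-95467293).

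Of 13 coregulators, the proteins through which the receptors switch transcription, 4 had a Nrf2 peak in control cells and 8 with iAs, and 7 and 11 had a HIF1α peak. PPARGC1B, a coactivator of mitochondrial genes, held the widest of both kinds, a Nrf2 iAs peak of 1144 bp in intron 1 (chr5:149184969-149186112) over a control peak and a HIF1α peak of 1971 bp with iAs only at 0.944 kb from the start (chr5:149109832-149111802). HIF1α peaks within 1 kb of the own start were called at 1 of the 13 coregulators in control cells and at 10 with iAs, at 5 and 16 of the 39 other receptors, at 2 and 7 of the 21 ligand genes and at 1 and 6 of the 15 target genes described next, beside 17.5% and 43.9% of all genes.

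For 21 genes of ligand synthesis, clearance and carriage, the Nrf2 counts were 7 in control cells and 9 with iAs and the HIF1α counts 9 and 11. CRABP2, which carries retinoic acid to its receptors, had the widest Nrf2 iAs peak of that list in its window (856 bp, 44.1 kb downstream and nearest to NES) and the widest HIF1α peak with iAs only (1025 bp, at -0.698 kb from its start). For 15 established receptor target genes, the Nrf2 counts were 3 and 5 and the HIF1α counts 5 and 12. KLF9, a target of thyroid hormone, had a Nrf2 peak of 1186 bp at -5.03 kb from its start that was also called in control cells, and PLIN2, a lipid droplet gene and PPAR target, had a HIF1α peak of 977 bp with iAs only at -0.338 kb.

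The widest Nrf2 iAs peak of each of these 4 lists overlapped a Nrf2 control peak, as that of RXRA did, while 62.0% of all Nrf2 iAs peaks overlapped none. These peaks were picked by width, as that of RXRA was, so nothing is read from this likeness.

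**Figure D5:**
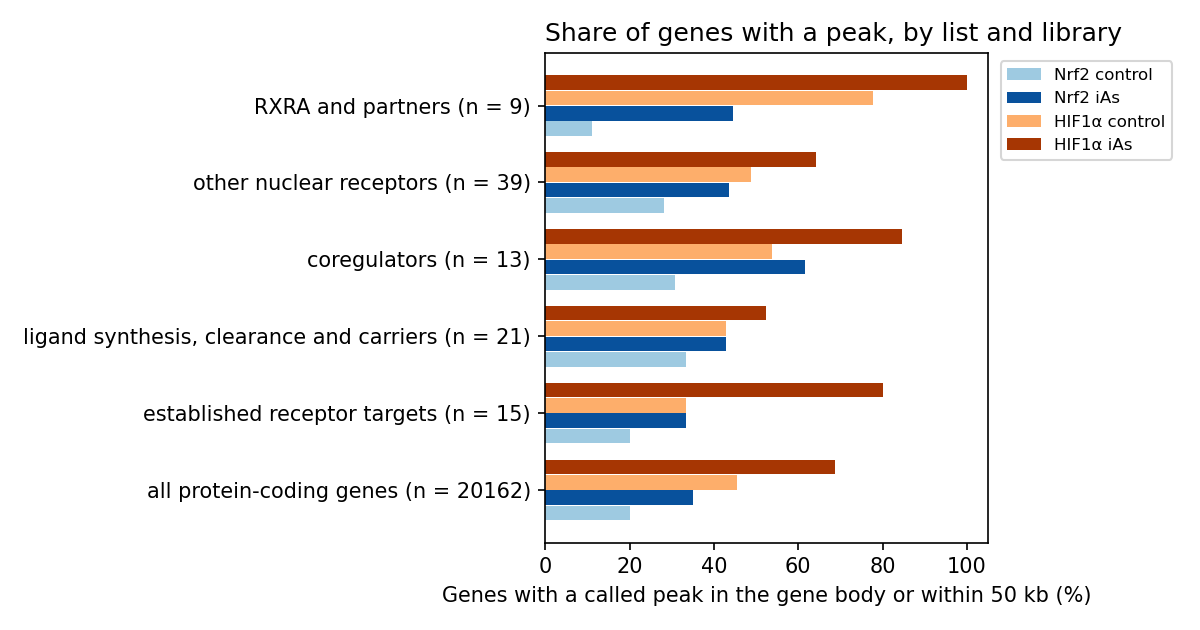
Share of genes (%) with a called peak in the body or within 50 kb, for RXRA and its partners, the 4 other lists and all protein-coding genes, with 1 bar per library. In every list and in all genes the iAs bar of each factor is at least as long as its control bar, and with 9 to 39 genes a list each gene moves the bar visibly. Neighbouring genes can share a peak, as THRA and NR1D1 do.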

How the data were processed

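ChIP-seq of Nrf2 and HIF1α was done in BEAS-2B cells, with 1 library per antibody and condition. The authors deposited called intervals on hg19 as positions, with no count, height or score. Their processing notes name BWA and MACS2 2.1.0, the methods MACS or SICER with tags down-sampled within a group, and which caller made each list is not given in the sources used here. Down-sampling and caller set how many and how wide the peaks are. The antibodies named in the labels and in the methods differ. Starts were changed to 1-based. Genes came from GENCODE release 44 lifted to GRCh37, with chromosome M left out. Peaks overlapping by at least 1 bp were called shared (Python 3.11.15, NumPy 2.4.6, pysam 0.24.0, checked with bedtools 2.31.1 and on simulated intervals). Motifs were counted within 100 bp of the centre. Without replicates no test was run. The authors' merged regions were not used. The genes and lists were chosen with earlier results of these data known. Named were the 9 genes, per list the genes with the widest Nrf2 iAs and HIF1α iAs-only peaks, and the 3 genes closest to RXRA in peak width, with ties. Some results at neighbouring genes that this rule or the distance limit covers are not reported here.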

Additional observations from a re-analysis of the deposited data

Results flagged for a closer look

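At 1 position at the 9 genes, intron 1 of RARA, the calls of the 2 factors differed in opposite ways. HIF1α was called there only without iAs and Nrf2 only with it. With 1 library each the difference was not tested. It was 1 of the 5 HIF1α control peaks without an iAs peak at these genes. Of all 2782 such HIF1α control peaks, 609 (21.9%) had the same pattern.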

How the results depend on the processing

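Of 70 recomputed counts, 44 stayed within 1.5-fold. Joining intervals under 500 bp apart (10 counts over all 9 genes), a gap of 1 kb and motifs in the whole interval moved none. With a distance of 10 kb, the HIF1α counts became 5 control peaks, 20 iAs peaks, 1 control peak overlapping an iAs peak, and 9 iAs peaks with the hypoxia core. Within 50 kb of the start site instead of the gene body, there were 0 Nrf2 control peaks at 0 genes, 2 Nrf2 iAs peaks at 2 genes (2 with iAs only), 4 HIF1α control peaks at 4 genes, and 18 HIF1α iAs peaks. With the wider 50% of each list, 1 Nrf2 iAs peak at 1 gene (0 with iAs only), 4 HIF1α control peaks at 4 genes and 12 HIF1α iAs peaks remained. Equal numbers of the widest peaks gave 1 Nrf2 iAs peak at 1 gene (0 with iAs only), 12 HIF1α iAs peaks and 0 overlaps of the 2 factors. A reciprocal overlap of 50% left 0 overlaps of the factors, 1 kept HIF1α control peak and 0 kept Nrf2 control peaks. No paired analysis was possible because each group has 1 library. Depth is unknown, so a missing peak is a missing call only.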
